A study of Mus musculus with 12 samples.

Results

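The cytosolic ribosomal protein genes were taken as every gene of the count files whose symbol is Rps or Rpl followed by a number and at most 1 letter of a, x, y or l, together with Rpsa, Rplp0, Rplp1 and Rplp2. Pseudogenes named with -ps and the Rps6k kinases were left out. This gave 81 of 24391 genes. RNA was sequenced from the anterior hard palate, the front of the bony roof of the mouth, of C57BL/6 mouse embryos. Controls, labelled wild type, were compared with Shox2Cre; R26RFgf8 mutants on embryonic day 14.5 (E14.5) or 16.5 (E16.5), with 3 samples in each of the 4 groups. In the mutants, Cre made under Shox2 control switches on an Fgf8 transgene at the R26R locus, so Fgf8 is forced in cells with a history of Shox2 expression and not in all cells of the dissected tissue. Whether a sample was 1 embryo or a pool is not given, and p-values then measure only the spread between these samples, which may be technical. In bulk RNA, a change in the number of cells of a type and a change in RNA per cell cannot be told apart.

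Ribosomal proteins assemble with ribosomal RNA into the small and the large subunit of the ribosome, which translates every cellular mRNA. Each protein is needed in a fixed ratio to the others, and the genes are among the most highly transcribed of growing cells. Their mRNAs typically begin with a run of pyrimidines, the 5′ terminal oligopyrimidine (TOP) tract, through which the mTOR pathway controls their translation. Mutations in single members cause Diamond-Blackfan anemia in humans, in which craniofacial defects, cleft palate among them, can occur. Most members have many processed pseudogene copies in the mouse genome, which matters for counting short reads.

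To show the tract, windows of 30 bases around the annotated start (20 bases before it and 10 from it on) are printed 5′ to 3′ on the gene's strand, from RefSeq on GRCm38.p6. The authors' counts rest on another build, mm9, and no coordinate was carried between them. Capitals mark a C within 2 bases of the annotated start and the run of C and T that follows it, as far as the window reaches. A run that starts further off is not marked, and whether the annotated start is the one used here was not tested. By this rule Rps6, Rpl14, Rpl35, Rpl27a, Rpl38 and Rps18 have a marked run, and Rps2 and Rpl13 do not. All but Rpl38 and Rps18 of these were called in a genotype comparison or in the comparison of genotype effects. Rps18 and Rps2 are among the members of largest spread between samples, and Rpl38 is shown for its known role in axial patterning.
Rps6, chr4:86857358-86857387, minus strand: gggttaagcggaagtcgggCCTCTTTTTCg
Rpl14, chr9:120571497-120571526, plus strand: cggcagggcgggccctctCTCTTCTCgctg
Rpl35, chr2:39005122-39005151, minus strand: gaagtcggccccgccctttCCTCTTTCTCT
Rpl27a, chr7:109519175-109519204, plus strand: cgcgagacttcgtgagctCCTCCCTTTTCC
Rpl38, chr11:114668560-114668589, plus strand: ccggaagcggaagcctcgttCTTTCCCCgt
Rps18, chr17:33955656-33955685, minus strand: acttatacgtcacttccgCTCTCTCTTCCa
Rps2, chr17:24720043-24720072, plus strand: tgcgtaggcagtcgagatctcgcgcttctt
Rpl13, chr8:123102330-123102359, plus strand: gtcacttccctttcgcctgattttgattgg

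Promoters of 300 bases (250 before to 50 after the start) were listed by RefSeq for 60 of the 81 members. A C followed by at least 4 further pyrimidines, starting within 2 bases of the annotated start, stood in 20 of the 60 (33.3%), against 8.96% of all 27025 listed promoters. The motif CCGGAAG, a match to ETS-family sites, was found on either strand in 24 of 60 (40.0%) against 9.12% of all promoters. The TATA box letters TATAAA stood in 5 of 60 (8.33%) against 14.2%, the E-box CACGTG in 5 of 60 (8.33%) against 7.24%, and AAGATGGC, the YY1 core, in 4 of 60 (6.67%) against 2.88%. A match is a match of letters, not a shown binding site, and the motifs were not set against the expression changes. A pyrimidine run further from the annotated start was not counted, so members without a match are not shown to lack a TOP tract.

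Total counts ranged from 76417891 to 125996587 per library. Fgf8, the gene forced on in the mutants, was at 0.249 to 0.462 CPM (counts scaled for library size with TMM factors) in the 6 control libraries and at 10.5 to 17.8 CPM in the 6 mutant libraries, in accord with every label. E16.5 mutant libraries 1 and 3 stood apart. The summed level of 8 retina markers was 146.9 and 84.8 CPM there against 13.5 CPM in mutant library 2 and 28.9 to 32.2 CPM in the E16.5 controls, and that of 8 neuron markers was 285.0 and 177.0 CPM against 62.4 and 49.5 to 53.8 CPM. Markers of osteoblasts summed to 708.9 to 960.9 CPM in E16.5 mutants and 2754 to 3429 CPM in E16.5 controls. Markers of palate mesenchyme summed to 1668 to 2577 CPM in those mutants and 792.2 to 932.1 CPM in those controls. At E14.5 osteoblast markers summed to 3093 to 3821 CPM in mutants and 7729 to 10054 CPM in controls, and 8 of 8 fell. There 5 of 8 endothelium and 2 of 7 macrophage markers also fell, and 4 of 8 palate mesenchyme markers rose. Of all genes tested at E14.5, 4.57% were called lower and 2.95% higher. The part of these cell types in the ribosomal protein results below was not tested.

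Levels differed widely between members. Levels per kilobase used the length of 1 annotated transcript per gene, which may not be the one present. Per kilobase of transcript, averaged over the 12 libraries, the highest levels were those of Rplp1 (2402 CPM per kb), a protein of the stalk that recruits translation factors, Rps15 (1848), Rpl32 (1662) and Rplp0 (1656), the base of the stalk. The lowest were Rpl10l and Rpl26 (0 counts in every library), Rpl3l (0.0433 CPM per kb) and Rpl30 (1.25 CPM per kb). A count of 0 allows up to 3 counts, or 0.0238 to 0.0393 CPM before TMM scaling in these libraries, by counting error only. Rpl10l and Rpl3l are paralogs known from testis and from striated muscle, whereas Rpl26 and Rpl30 are parts of every large subunit. Rpl26, Rpl10l and Rpl3l did not pass the filter on low counts, which left 78 members in the tests. Rps4l, which also answers to the naming rule, is annotated as a transcribed pseudogene in GENCODE and RefSeq and has no length here.

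The sequences that members share with other genes were measured because reads that fit several places can be dropped or split by the counting. Of 80 members with a protein-coding transcript in GENCODE M21, the median share of 50-base windows found in no other gene's transcript was 48.1%, from 1.35% in Rps27 to 100%, as in Rpl39l and Rpl3l. Rpl29 shared a window with 84 other genes (81 of them pseudogenes), Rps2 with 71 (71), Rpl21 with 82 (81) and Rpl7a with 123 (121). Across the 80 genes, the level per kilobase and the share of windows of a gene's own had a Spearman rho of 0.26 for 50 bases and 0.39 for 100 bases. These are descriptions over genes that share libraries and sequence. Rpl26 has 28.7% and Rpl30 23.6% of 50-base windows of their own. For 100-base windows these were 63.2% and 46.5%, with a median over members of 63.2%. The 5 members with under 10% of 50-base windows of their own were at 4.87 to 228 CPM per kb. The part of shared sequence in the low counts of Rpl26 and Rpl30 was not tested. The read length and the handling of reads with several matches are not given in the sources used here, and levels of members with many copies are therefore uncertain.

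**Figure D1:**
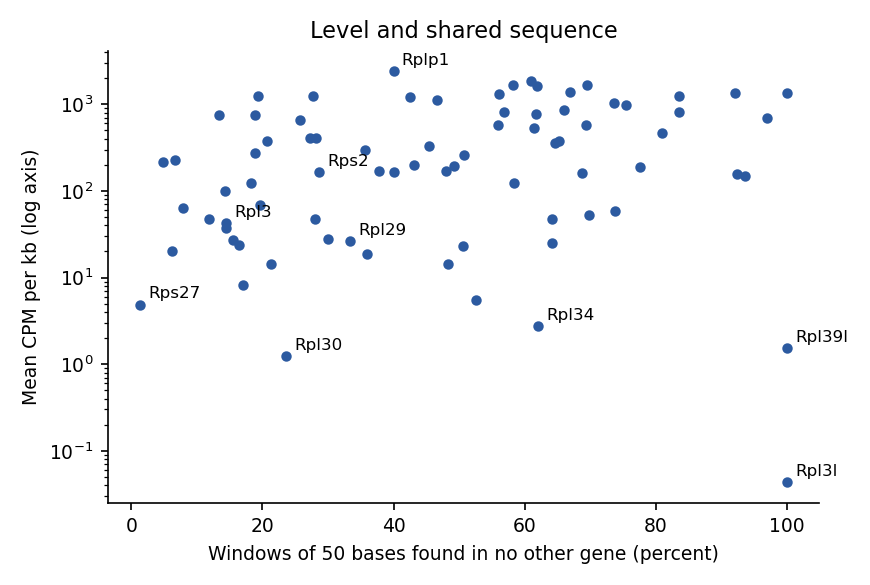
Mean level of each member in CPM per kilobase of transcript (log axis) against the percent of its 50-base windows found in no other gene's transcript, with 1 point a gene. Rpl26 and Rpl10l, at 0, cannot be drawn on a log axis, and low levels occur from 1.35% (Rps27) to 100% (Rpl3l and Rpl39l) of unshared windows.

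Together the members took 2.57% to 3.79% of each library's counts. The share was 3.05%, 3.19% and 2.68% in E14.5 controls 1, 2 and 3, and 3.49%, 3.38% and 2.85% in E14.5 mutants. At E16.5 it was 3.16%, 3.24% and 2.57% in controls and 3.79%, 3.63% and 3.01% in mutants. In each group the lowest share was that of the replicate numbered 3, and controls and mutants overlapped at both ages. Within each replicate number the mutant was above the control, by 0.442, 0.191 and 0.165 percentage points at E14.5 and by 0.631, 0.394 and 0.443 at E16.5. The group means were 2.97 ± 0.262% and 3.24 ± 0.343% (SD, n = 3) at E14.5 and 2.99 ± 0.366% and 3.48 ± 0.411% at E16.5. The differences of 0.266 and 0.489 percentage points did not pass an exact two-sided permutation test (p = 0.4 and p = 0.3, both 0.667 after Benjamini-Hochberg adjustment over 4 comparisons, with 0.1 the smallest p that 3 against 3 allows). An exact sign-flip permutation test over the E16.5 pairs, added after seeing the data, gave p = 0.25, the smallest that 3 pairs allow, so the test cannot pass at this size. Between ages the share differed by 0.0180 points in controls and 0.241 points in mutants (exact permutation p = 0.9 and p = 0.5). The control difference turned negative on leaving out E14.5 control 3 (-0.127), E16.5 control 1 (-0.0665) or E16.5 control 2 (-0.107).

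**Figure D2:**
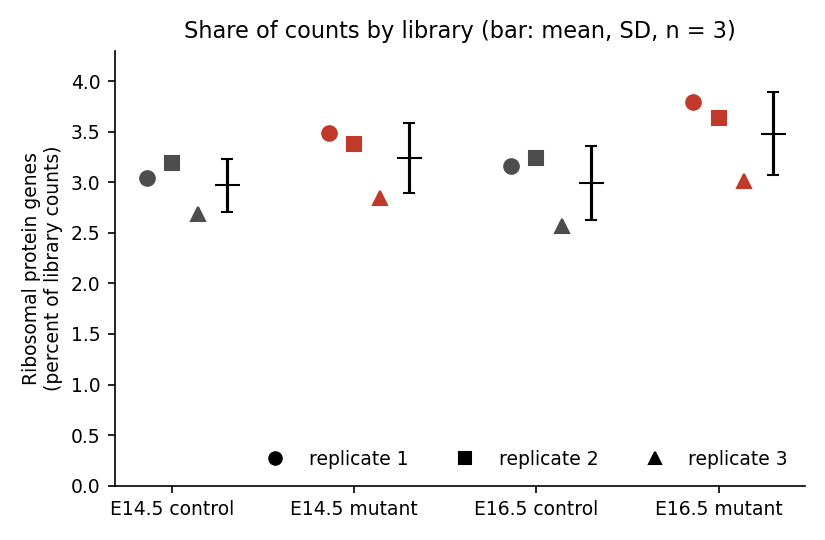
Percent of each library's counts in the 81 members, by group, with 1 symbol for each replicate number and the mean ± SD (n = 3) beside it. The replicate numbered 3 is lowest in every group, and each mutant lies above the control of its own number.

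Between mutants and controls at E14.5, 6 of 78 members passed the test (7.69%), 4 higher and 2 lower, against 7.52% of the 16650 genes tested (2.95% higher and 4.57% lower). The share of members called was thus near the background. The median member differed by 0.07 on the log2 scale, 58 of 78 lay above 0, and the median of all genes tested was 0.01. The log2 fold changes of members ran from -1.39 to 0.67.

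In the small subunit, Rps14, a protein of its platform, was at 589, 687 and 494 CPM in E14.5 controls and 1042, 933 and 734 CPM in E14.5 mutants. The lowest mutant stood above the highest control. Rps14 rose by 0.62 (log2, SE 0.14, adjusted p = 0.0252). Its call was lost without E14.5 control 1 (adjusted p = 0.0658), control 3 (0.0781), mutant 1 (0.101) or mutant 2 (0.0870), and with all 12 samples in 1 fit (0.0794). Rps2, which lies near the entry of the mRNA channel, was at 172, 276 and 239 CPM in controls and 162, 93.5 and 122 CPM in mutants, again without overlap. It fell by 0.86 (log2 -0.86, SE 0.20, adjusted p = 0.0279), and this call was lost without E14.5 control 2 (adjusted p = 0.0623), control 3 (0.0774) or mutant 2 (0.0850). The Rps2 call was also lost with all 12 samples in 1 fit (adjusted p = 0.501) and in replicates 1 and 2 alone (0.163).

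In the large subunit, Rpl9 rose from 117 to 140 CPM in controls to 147 to 188 CPM in mutants (log2 0.38, SE 0.10, adjusted p = 0.0417). Rpl13a, also known outside the ribosome as a silencer of inflammatory mRNAs, rose from 938 to 1107 CPM to 1138 to 1402 CPM (log2 0.34, SE 0.09, adjusted p = 0.0421). Rpl35, near the exit of the peptide tunnel, rose from 182 to 187 CPM to 208 to 238 CPM (log2 0.25, SE 0.06, adjusted p = 0.0380). Rpl21 was at 120 to 130 CPM in controls and 91.6 to 108 CPM in mutants and fell by 0.32 (log2 -0.32, SE 0.07, adjusted p = 0.0245). Of 17 alternatives, 12 kept the call of Rpl9, 12 that of Rpl13a, 11 that of Rpl35 and 13 that of Rpl21. In all 4 the groups did not overlap, as in 10 members higher and 2 lower at this age, against 14.6% and 14% of all genes. The count of 6 became 0 without E14.5 mutant 2 (11 members then had an unadjusted p under 0.05) and 13 without E14.5 mutant 3. It was 1 without E14.5 control 3 and 2 without control 1 or mutant 1. With the replicate block it was 20, of which 17 were higher and 3 lower, against 18.9% of genes (8.95% and 10%). DESeq2 called 9 and limma-voom 6. In the authors' deposited table, 8 members were higher and 2 lower of 78 with an adjusted p, against 13.4% of all genes in that table.

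At E16.5, 9 of 78 members passed the test (11.5%), 9 higher and 0 lower, against 27.9% of the 17169 genes tested (12.2% higher and 15.7% lower). The share called higher was thus near the background of 12.2%. The median member differed by 0.20 on the log2 scale against 0.01 for all genes tested, and 71 of 78 lay above 0. Without E16.5 mutant libraries 1 and 3, which carried the retina and neuron markers, the median was 0.28. That fit set 1 mutant library, numbered 2, against controls that included the replicate numbered 3, which was low in most members. Genotype and replicate number cannot be told apart in it. Under DESeq2 size factors, upper-quartile factors or library totals the members' median was 0.20 to 0.22. It depended on single libraries, at 0.098 without E16.5 control 3, 0.23 without control 1 and 0.25 without control 2. Without control 3, 12 members had an unadjusted p under 0.05 by edgeR, against 23 with all libraries. By list, 5 of 30 small subunit proteins and 4 of 42 large subunit proteins rose. None of the 3 stalk proteins (1 with an unadjusted p under 0.05) and none of the 3 tested paralogs of restricted expression (0 with an unadjusted p under 0.05) was called by edgeR.

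At E16.5 the replicate numbers passed the check for pairing given under the processing, with a lowest correlation of 0.105 against a limit of 0.1. With the number as a block, 55 of 78 members were called, 54 higher and 1 lower, against 39.3% of all genes (18.7% higher and 20.6% lower). Over the members alone, same-numbered deviations at E16.5 correlated at -0.125, -0.0824 and 0.570, so only those numbered 3 correlated positively across members. The median deviation from the group mean was 0.091, 0.114 and -0.180 (log2) in E16.5 controls 1, 2 and 3. In E16.5 mutants 1, 2 and 3 it was 0.057, 0.120 and -0.186. The blocked calls were 22 of 30 in the small subunit, 30 of 42 in the large subunit, 3 of 3 in the stalk and 0 of 3 paralogs. The 1 lower member was Rpl3 (log2 -0.61, adjusted p = 0.0375). The median with the block was 0.20, so more members were called at the same size of difference, as the plot of fold changes shows. DESeq2 without the block called 17, all higher, and in the authors' deposited table the members called were 17 higher and 0 lower of 79, against 30.7% of all genes in that table.

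**Figure D3:**
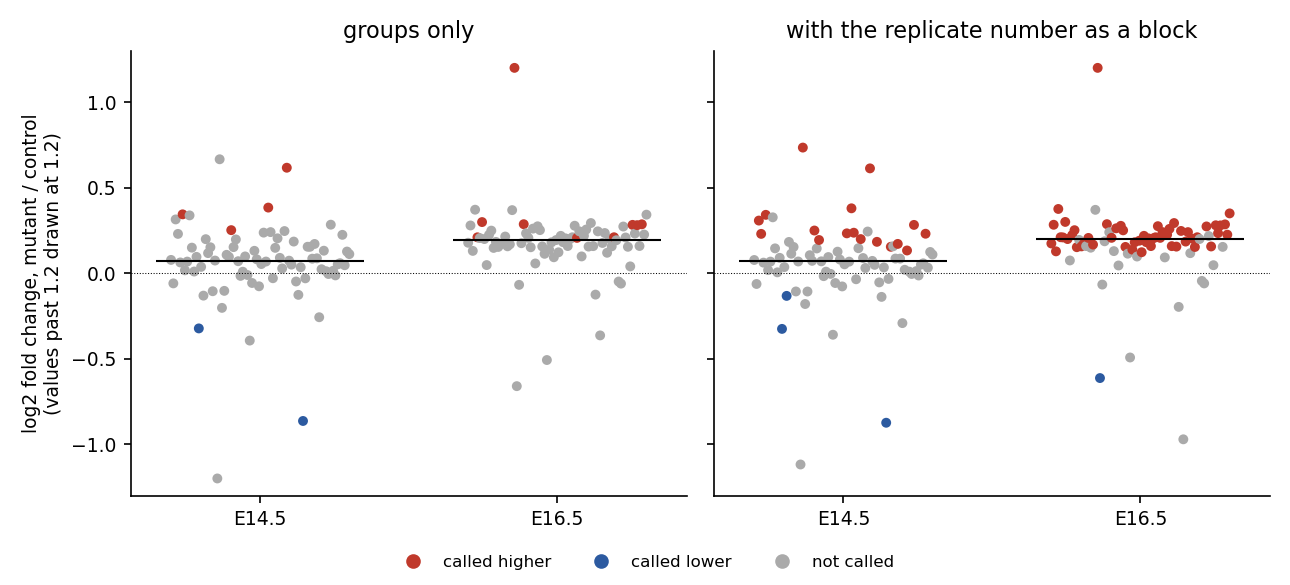
log2 fold change of each of 78 members, mutant over control, at each age, without (left) and with (right) the replicate number as a block. Each point is a gene, the line is the median, and values past 1.2 in either direction are drawn at the edge (Rpl29 at both ages). At E16.5 most points lie just above 0 in both panels, and 9 are called without the block and 55 with it.

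Rpl29, a protein on the outer face of the large subunit that is also known to bind heparan sulfate, stood far from the other members. It was at 1.49, 1.34 and 1.35 CPM in E16.5 controls and 34.5, 62.8 and 45.2 CPM in E16.5 mutants, with no overlap. The log2 fold change was 5.11 (SE 0.23, adjusted p = 6.33e-06), and it was called in all 18 alternatives tried (log2 of at least 4.86). At E14.5 the same gene was at 1.90, 34.6 and 21.2 CPM in controls and 12.4, 1.82 and 7.80 CPM in mutants. The E14.5 groups overlapped, and the log2 difference of -1.39 (SE 0.81) did not pass (adjusted p = 0.344). Both low and high values thus occurred within each E14.5 genotype. The gene shares windows with 84 others, as given above, and the part of such copies in its counts was not tested.

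The other 8 members called at E16.5 rose by 0.21 to 0.30 on the log2 scale, and none of their groups overlapped. Of these, Rps6, the target of the S6 kinases, was at 20.1, 19.9 and 20.3 CPM in controls and 24.8, 22.9 and 24.3 CPM in mutants (log2 0.28, SE 0.07, adjusted p = 0.0241). Rps4x, encoded on the X chromosome, rose from 995 to 1092 CPM to 1136 to 1326 CPM (log2 0.28, adjusted p = 0.0353). Rps26, also of the small subunit, rose from 475 to 499 CPM to 541 to 569 CPM (log2 0.21, adjusted p = 0.0415). In the large subunit, Rpl14 rose from 204 to 238 CPM to 256 to 286 CPM (log2 0.30, adjusted p = 0.0263). Rpl32 rose from 743 to 840 CPM to 881 to 990 CPM (log2 0.29, adjusted p = 0.0282), and Rpl13 from 45.5 to 49.8 CPM to 53.9 to 54.3 CPM (log2 0.21, adjusted p = 0.0371). Over the members, 16 were higher and 1 lower without overlap, against 18.3% and 24.5% of all genes. Leaving out 1 library brought the count to 3 (E16.5 control 2, control 3 or mutant 1), 4 (control 1), 6 (mutant 2) or 7 (mutant 3). In 2 of these, without control 2 and without mutant 2, 1 of the calls was lower.

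Members named for their roles showed small differences. Rpsa, the laminin receptor precursor, had a log2 difference of 0.34 at E16.5 (adjusted p = 0.121). Rps19, mutated in Diamond-Blackfan anemia, had 0.24 (adjusted p = 0.108). Rpl5 and Rpl11, which bind the p53 regulator Mdm2, had 0.09 (adjusted p = 0.485) and 0.13 (adjusted p = 0.577). Rpl38 had 0.16 (adjusted p = 0.269) and Rpl10, which joins the large subunit late, 0.18 (adjusted p = 0.298). The stalk proteins Rplp0, Rplp1 and Rplp2 had 0.16 (adjusted p = 0.317), 0.20 (adjusted p = 0.345) and 0.21 (adjusted p = 0.0595).

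**Figure D4:**
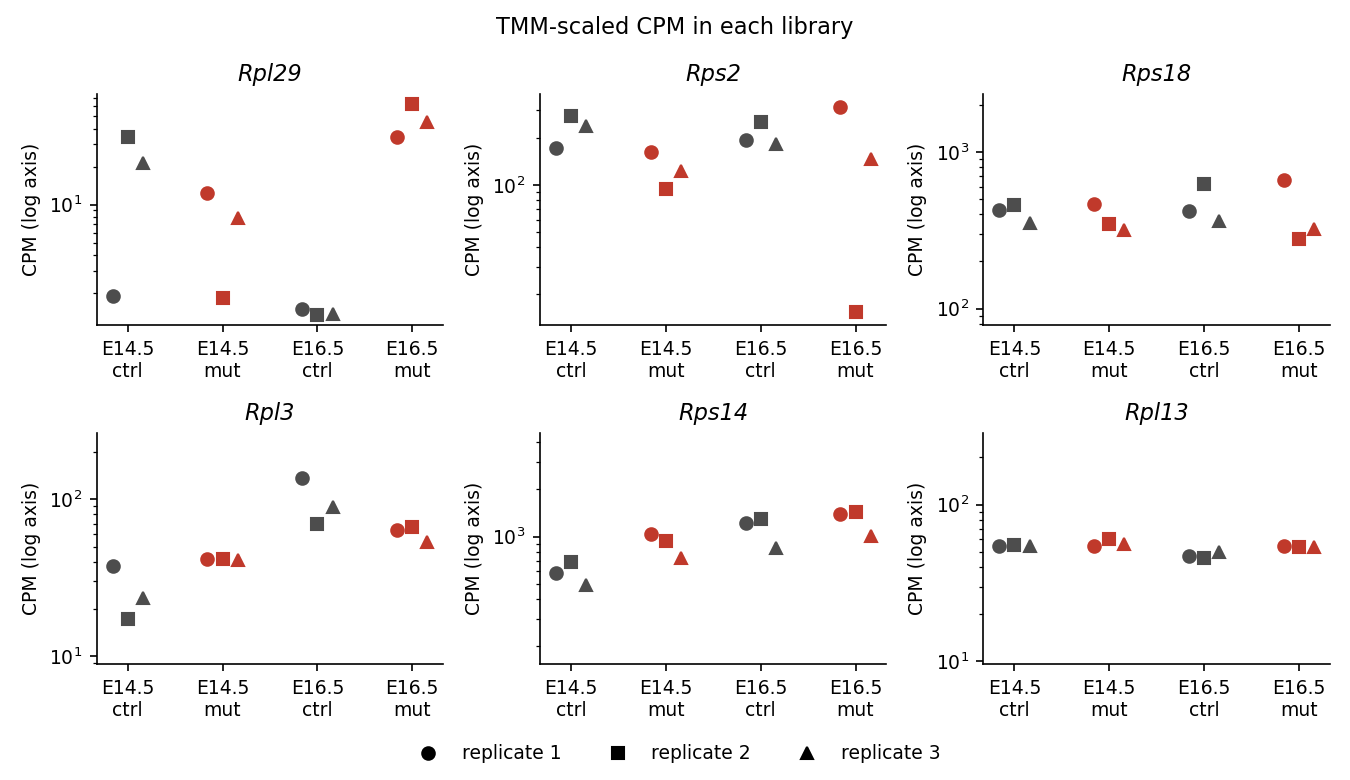
TMM-scaled CPM (log axis) of 6 members in each library, grey for controls and red for mutants, with a symbol for each replicate number. Rpl29 is low in all E16.5 controls and high in all E16.5 mutants but scattered in both E14.5 groups, Rps2 is low in E16.5 mutant 2 alone, and Rpl13 is between 45.5 and 60.7 CPM in all 12 libraries.

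The genotype effects at the 2 ages differed in 3 of 78 members (3.85%), 2 upward and 1 downward, against 22.3% of 17550 genes (9.97% upward and 12.4% downward). With the replicate block, although the numbers did not pass the check for pairing at E14.5, 24 members were called. Of these 19 were upward and 5 downward, against 34.5% of genes (16% and 18.5%). Rpl29 differed by 6.48 (log2, SE 1.15, adjusted p = 0.00164). Rpl27a was at 60.3 to 63.6 CPM in E14.5 controls, 53.9 to 60.5 CPM in E14.5 mutants, 46.1 to 48.6 CPM in E16.5 controls and 49.6 to 54.8 CPM in E16.5 mutants (log2 0.25, SE 0.08, adjusted p = 0.0476). Rpl3, which reaches close to the peptidyl transferase centre, was at 37.8, 17.4 and 23.6 CPM in E14.5 controls and 41.9, 41.9 and 41.0 CPM in E14.5 mutants. At E16.5 it was at 137, 69.8 and 88.7 CPM in controls and 63.5, 66.5 and 53.7 CPM in mutants. Mutants were thus above all controls at the earlier age and below all controls at the later, and the difference of effects was -1.35 (log2, SE 0.36, adjusted p = 0.0180). Neither age passed on its own (edgeR adjusted p of 0.0953 at E14.5 and 0.0521 at E16.5), but with the replicate block at E16.5 Rpl3 was called lower, as given above (log2 -0.61, adjusted p = 0.0375). Without E16.5 mutant libraries 1 and 3 the difference was -1.21 (adjusted p = 0.132), which no longer passed.

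With age in controls, 21 of 78 members passed (26.9%), 9 higher and 12 lower at E16.5, against 66.4% of 17550 genes (34.3% higher and 32.1% lower). Without overlap between the ages, 8 members were higher and 19 lower, against 36.8% and 35.2% of genes. The difference between these shares was not tested. With the replicate block 14 members were called higher and 21 lower, against 72.6% of genes (37.1% and 35.5%). Rpl3 rose by 1.91 (log2, SE 0.26, adjusted p = 2.74e-05), and Rps14 rose by 0.93 (log2, adjusted p = 0.000716), from 494 to 687 CPM to 846 to 1295 CPM. Rpl11 rose by 0.50, Rps7 by 0.46, Rpl9 by 0.41 and Rpl13a by 0.35 (log2). Rpl29 fell by 3.79 (log2 -3.79, SE 0.86, adjusted p = 0.00161) and was called in 15 of 16 alternatives, limma-voom being the exception (adjusted p = 0.0849). Rpl39l, a paralog of Rpl39 known from testis, fell from 1.34 to 2.78 CPM to 0.563 to 1.0 CPM (log2 -1.26, adjusted p = 0.00326). The pseudogene Rps4l fell by 0.64 (adjusted p = 0.000312), Rpl27a by 0.39, Rpl28 by 0.39 and Rpl14 by 0.35 (log2).

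With age in mutants, 5 of 78 members passed (6.41%), 3 higher and 2 lower, against 51.6% of 17550 genes (27.2% higher and 24.4% lower). Without overlap, 3 members were higher and 2 lower, against 28.4% and 27.9% of genes. With the replicate block 27 were called higher and 3 lower, against 60% of genes (30.7% and 29.4%). Rpl29 rose by 2.69 (log2, adjusted p = 0.0103), from 1.82 to 12.4 CPM to 34.5 to 62.8 CPM, the opposite direction to controls. Rps14 rose by 0.51 (adjusted p = 0.0369) and Rps7 by 0.37 (adjusted p = 0.0455). Rpl39l fell by 1.40 (log2, adjusted p = 0.00293) and Rps4l by 0.64 (adjusted p = 0.000547). Both age comparisons were read from 1 fit of all 12 samples. The count in mutants was 14 without E16.5 mutant 3, and 3 without E16.5 mutant 1 or E14.5 mutant 3.

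Within groups, the members' median spread between samples was above that of other abundant genes. The pooled within-group SD of log2 CPM had a median of 0.172 over 78 members, 0.143 over the 17550 genes past the filter and 0.0902 over 7171 genes with a mean log2 CPM of at least 5. Among the 60 members above that mean it was 0.164. The SD was largest for Rpl29 (1.35) and Rps2 (1.16), then Rps18 (0.43), Rpl39l (0.40), Rpl3 (0.38), Rps27 (0.35), Rpl34 (0.34) and Rpl36a (0.32). It was among the smallest for Rpl13 (0.054) and Rpl8 (0.055). Rpl29 and Rps2 were above 99.5% and 99.1% of the tested genes.

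In Rps2 the spread came mainly from E16.5 mutants, at 314, 15.5 and 146 CPM, where library 2 was lowest and library 1 highest of all 12 libraries. E16.5 controls were at 193, 252 and 183 CPM, and the log2 difference between them was -0.36 (SE 0.76, adjusted p = 0.761). Rps18 was likewise at 660 CPM in E16.5 mutant 1 and 280 CPM in mutant 2, against 421, 624 and 360 CPM in E16.5 controls. Rpl29 varied mainly at E14.5, with SDs of 2.23 and 1.44 in controls and mutants against 0.085 and 0.43 at E16.5.

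**Figure D5:**
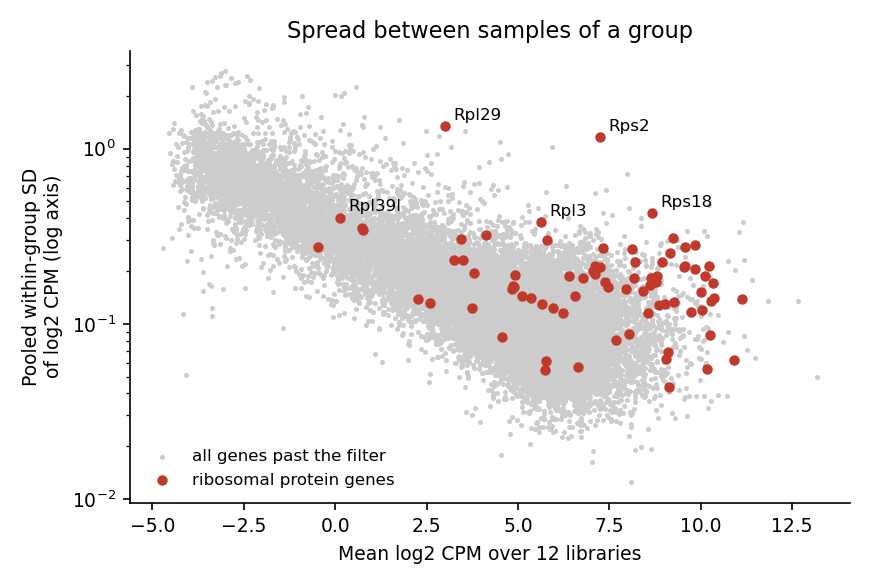
Pooled within-group SD of log2 CPM (log axis) against mean log2 CPM over 12 libraries, for 17550 genes (grey) and 78 members (red). Rpl29 and Rps2 lie well above the other members, while Rpl13, near the lower end, is at 0.054.

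The spread of most members moved with the replicate number of the labels. A test of replicate number within groups called 54 of 78 members (69.2%) against 20.9% of 17550 genes, and in all 54 the replicates numbered 3 lay below the mean of 1 and 2 (9% of all genes were called in that direction). The median member was 0.25 lower (log2) in the replicates numbered 3. In 57 of 78 members (73.1%) the replicate numbered 3 was lowest in each of the 4 groups, against 12.8% of all genes. Rpl36a, for example, was at 20.6, 17.5 and 14.9 CPM in E14.5 controls and 20.8, 19.8 and 15.1 CPM in E14.5 mutants. At E16.5 it was at 18.4, 20.6 and 13.0 CPM in controls and 21.3, 19.5 and 12.4 CPM in mutants, and the replicates numbered 3 were 0.52 lower (log2 -0.52, adjusted p = 0.00176). Rpl13, Rpl14, Rps6, Rpl15, Rpl28, Rpl29 and Rpl30 were among the members not lower in the replicates numbered 3. Without the replicates numbered 3, the median SD of members was 0.0630, against 0.119 over all genes and 0.0635 over the abundant genes.

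Transcript length moved with this difference. Among 15656 other genes with a protein-coding transcript length, the log2 difference of the replicates numbered 3 had a Spearman rho of 0.53 with length, so that shorter transcripts were lower there. The median difference was -0.22 for 354 genes under 700 bases, -0.19 for 657 genes from 700 to 1000, -0.10 for 3540 genes from 1000 to 2000, 0.00 for 6500 genes from 2000 to 4000 and 0.11 for 4605 longer genes. Members are short, with a median length of 780 bases against 2861 in other genes. The 30 members under 700 bases had a median of -0.32, and the 23 from 700 to 1000 bases had -0.19. The 21 members from 1000 to 2000 bases had -0.21, the 2 from 2000 to 4000 bases -0.31 and the 1 longer member -0.47. By these lengths the members of over 1000 bases were not higher than those from 700 to 1000 bases, and rho over 77 members was 0.32. Each length is that of 1 annotated transcript per gene, 5179 bases for Rps15a and 3706 bases for Rps20. Whether these transcripts are the ones present was not tested, so the bins of longer members are uncertain. The labels do not say what the replicate number marks, and the part of length in the members' difference was not tested. In every group the sample record of the replicate numbered 3 belongs to a later, separate set of consecutive record numbers than those of the other replicates. What this separation reflects is not given. In the genotype comparison at E16.5, other genes under 1000 bases had a median of -0.05 and members of that length 0.21, and at E14.5 the medians were 0.06 and 0.09.

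Other genes of the translation machinery were read beside the members, by lists chosen with earlier results of these data known. Of 76 mitochondrial ribosomal proteins, 2 rose at E14.5 (Mrpl53 and Mrps22), and at E16.5 1 rose (Mrps18a) and 2 fell (Mrpl39 and Mrpl24), against 7.52% and 27.9% of all genes called, with a median log2 difference of 0.07 and 0.04. For replicate number 37 of the 76 were called, all lower in the replicates numbered 3, against 20.9% of genes. Of 19 translation factors and other genes with TOP mRNAs in the files, 1 rose at E14.5 (Eif3h, log2 0.28), against 7.52% of genes called. At E16.5 1 of the 19 rose (Hnrnpa1, log2 0.49, adjusted p = 0.00353), against 27.9% of genes called, and the median of the list was 0.11. Of 8 snoRNA host genes, Snhg4 (log2 0.48) and Snhg5 (log2 0.31) rose at E16.5, which is 25% against the same 27.9% of genes.

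Of 50 ribosome biogenesis factors, 4 rose and 1 fell in E16.5 mutants (10% against 27.9% of genes). Ppan (log2 0.32), Nop56 (0.29), Rrs1 (0.26) and Gar1 (0.21), which act in subunit assembly or RNA modification, rose, and Eif6, which keeps subunits apart, fell by 0.26. With age in controls 40 of the 50 were called, 34 lower and 6 higher (80% against 66.4% of genes), with a median of -0.29 (log2), where the members' median was -0.04. Tcof1, the Treacher Collins syndrome gene, fell by 1.24 and Polr1a, the largest subunit of RNA polymerase I, by 0.84. Of 10 genes of the MYC family and its partners, 1 was called at E14.5 and 5 at E16.5 (3 higher and 2 lower), against 7.52% and 27.9% of genes. Myc rose at both ages (log2 1.89 at E14.5, adjusted p = 0.000108, and 1.49 at E16.5, adjusted p = 0.000149) and Mycn rose at E16.5 (log2 1.78, adjusted p = 0.00337). Of 24 S6 kinases and regulators of TOP mRNAs, Tsc1, an inhibitor of mTOR signalling, rose at E16.5 (log2 0.31, adjusted p = 0.0432) and no other was called at that age. Of the 17 tested members linked to Diamond-Blackfan anemia, Rpl35 rose at E14.5 and Rps26 at E16.5, each 1 of 17 (5.88%) against 7.52% and 27.9% of genes. All 17 lay above 0 at E16.5, as did 71 of all 78 members tested. The 6 ribosomal protein genes whose names fall outside the rule (Rpl22l1, Rpl7l1 and Rps3a1 among them) were not called for genotype by edgeR at either age, nor had any an unadjusted p under 0.05. With the replicate block at E16.5, where 39.3% of genes were called, the lists held more calls. These were 10 of 17 members linked to Diamond-Blackfan anemia, 7 of 8 snoRNA host genes and 7 of 19 translation factors and other TOP genes, all higher. They were also 10 higher and 1 lower of 50 biogenesis factors, 4 higher and 5 lower of 76 mitochondrial ribosomal proteins, 2 higher of 24 S6 kinases and regulators, and 1 higher of the 6 outside the rule.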

How the data were processed

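Per the submitters' processing notes, reads were aligned to mm9 with HISAT2 and counted with featureCounts, and the authors ran DESeq2. Versions, annotation and strand setting are not given in the sources used here. Reads of overlapping or antisense genes therefore cannot be told apart. The deposited per-sample counts are raw counts of 24391 gene symbols. The authors' deposited tables of comparisons gave log2 fold changes and adjusted p-values. The 24 per-sample columns of the series' tables were not used. Date-like names stood for 27 genes (0.251% of counts), which stayed in the fits.

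The models used edgeR 4.0.16 under R 4.3.3 (TMM factors, filterByExpr, quasi-likelihood test, Benjamini-Hochberg adjusted p under 0.05), within each age for genotype and over all 12 samples otherwise. Log2 CPM used a prior count of 2. Shares were compared by an exact permutation test. The scripts were tested on simulated data. Alternatives covered scaling, filters, DESeq2 1.42.0, limma-voom (limma 3.58.1), the replicate block, all 12 samples in 1 fit, the denominator of the shares and each library left out. Chosen after seeing the data were 3 more, namely a model term marking replicates numbered 3, the use of replicates 1 and 2 alone, and leaving out mutant libraries 1 and 3 of E16.5 (the 1 mutant library left is then assumed to vary like the other groups). The reading by transcript length and the paired test of the E16.5 shares were likewise added.

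The members and all lists were chosen with earlier results of these data known. Named genes were Rpl29 and Rps2, members called for genotype (up to 10 each way per age), up to 6 each way for age and for the difference between ages, the 8 largest and 3 smallest spreads, the 4 highest and 4 lowest levels, members the filter removed, 10 members with known roles, and up to 4 called genes of each other list. Others given as examples (Rpl36a, the members not lower in the replicates numbered 3, and those with many or few shared windows) were chosen after their values were seen. Some genes that the rule names are not reported here.

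Replicate numbers were held to pair samples where every correlation of same-numbered deviations over all genes past the filter exceeded 0.1. This held at E16.5 (0.105, 0.161 and 0.222) and not for the other comparisons (lowest 0.019 at E14.5, 0.062 in controls and -0.024 in mutants across ages). Among 13463 genes averaging over 1 in log2 CPM, the controls across ages also exceeded it (0.149, 0.236 and 0.560), while the lowest was 0.0783 at E14.5 and 0.0566 in mutants across ages. Marker lists of epithelium, skeletal muscle, endothelium, erythroid cells and macrophages were also read: at E16.5 the mutants had 0 and 2 of 8, 0 and 2 of 8, 8 and 0 of 8, 0 and 0 of 7 and 0 and 0 of 7 genes called higher and lower (edgeR; 1 erythroid and 1 macrophage gene had an unadjusted p under 0.05). Of all genes tested at E16.5, 12.2% were called higher and 15.7% lower. Sequences are from RefSeq (GRCm38.p6) and transcripts from GENCODE M21.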

Additional observations from a re-analysis of the deposited data

Results flagged for a closer look

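The genotype effect differed between the ages, by a test of the difference itself, in 3 members. For Rpl29 the effect at E16.5 exceeded that at E14.5 by 6.48 (log2, adjusted p = 0.00164), from -1.39 at E14.5 to 5.11 at E16.5. In replicates 1 and 2 alone, with fewer samples, it was 6.48 but did not pass (adjusted p = 0.0621). For Rpl3 the difference was -1.35 (adjusted p = 0.0180), from 0.67 at E14.5 to -0.66 at E16.5, and it did not pass with fewer samples. It was then -1.26 with replicates 3 left out (adjusted p = 0.174) and -1.21 with E16.5 mutant libraries 1 and 3 left out (adjusted p = 0.132). For Rpl27a the difference was 0.25 (adjusted p = 0.0476), from -0.11 to 0.17, and it kept its call in 12 of 23 alternatives. Groups of 3 samples are too small for a test of single outlying samples.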

How the results depend on the processing

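No call of a named gene changed direction under any alternative. Of 6 members called at E14.5 none, of 9 at E16.5 Rpl29 alone, of 21 with age in controls 13, of 5 with age in mutants 1 and of 54 for replicate number 40 were called under every alternative. The count at E14.5 (6) was 20 with the replicate block, 19 with a term for the replicates numbered 3, 11 in replicates 1 and 2 alone and 0 with all 12 samples in 1 fit (10 with an unadjusted p under 0.05), and 0 to 13 with 1 library left out. The count at E16.5 (9) was 55 with the block, 51 with the term, 17 by DESeq2, 14 with all 12 samples, and 3 to 7 with 1 library left out. The count for the difference between ages (3) was 24 with the block, 23 with the term, 5 by DESeq2 or upper-quartile factors and 2 to 6 with 1 library left out. The count in controls across ages (21) was 35 with the block or the term and 18 to 21 with 1 library left out. The count in mutants across ages (5) was 30 with the block, 28 with the term, 20 in replicates 1 and 2 alone, 3 by upper-quartile factors or library totals and 3 to 14 with 1 library left out. The count for replicate number (54) was 41 to 55 with 1 library left out. The median SD of members (0.172) was 0.0630 to 0.209 with the replicates of 1 number left out. The share differences were 0.121 to 0.462 points at E14.5, 0.279 to 0.722 at E16.5, -0.127 to 0.228 in controls across ages (-0.0665 without E16.5 control 1 and -0.107 without E16.5 control 2) and 0.0453 to 0.474 in mutants across ages. The cause of these differences was not tested. Outside E16.5 the samples were taken to share only a number by the check over all genes, which for controls across ages depends on the genes used. Each sample correlated best with its own number between the control groups of the 2 ages, as a hint from the data, but between E14.5 controls and mutants, and between the mutant groups of the 2 ages, only replicates 3 did.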
